A study of Mus musculus with 6 samples.

Results

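The genes described here encode 40 factors that build the complexes of the mitochondrial respiratory chain and ATP synthase without being part of the finished enzymes. They were chosen by name from a list of known assembly factors, without a threshold on a measured value. The choice was made with earlier results of these data known. All 40 were found among the 17975 genes of the expression table. By the complex each factor acts on, 13 belong to complex I, 4 to complex II, 6 to complex III, 13 to complex IV and 3 to complex V, and 1, Lrpprc, keeps the messenger RNAs of mitochondrial DNA stable.

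RNA was sequenced from whole livers of 3 Hom mice and 3 WT mice to learn how deletion of NEK7 in hepatocytes changes liver gene expression. Hom mice carry floxed Nek7 alleles (NEK7 fl/fl) and an Alb-Cre transgene, in which the albumin promoter drives Cre recombinase in hepatocytes. Whether the other liver cells kept intact alleles was not measured. The WT livers are labelled wild type only, without stating whether they carry Alb-Cre, and the age and sex of the sequenced mice are not given in the sources used here. The same RNA count can fall because a liver holds fewer cells of a type or because each cell holds less RNA, and these cannot be told apart in whole tissue.

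The respiratory complexes are large assemblies of many subunits that carry flavin, iron-sulfur clusters, heme or copper. Assembly factors fold and insert subunits, load these cofactors and hold intermediates together, and then leave the finished complex. Liver mitochondria depend on them, and inherited loss of several of these factors in people leads to deficiency of a respiratory complex.

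Estimated read counts summed to between 19349418 and 19730236 per liver. Composition differed between the groups, with trimmed mean of M-values (TMM) scaling factors of 0.806 to 0.924 in WT and 1.09 to 1.23 in Hom livers. The CPM values below (counts scaled to a fixed library total) use these factors, which put the median gene of the 13805 tested at a log2 fold change of -0.00175. Dividing by library size alone moved that median to 0.45, so every change below is relative to the median gene. Nek7, the deleted gene, was at 62.9, 69.1 and 63.7 CPM in WT and at 14.5, 18.1 and 16.7 CPM in Hom livers (log2 fold change -1.99 ± 0.103 SE, adjusted p = 0.000159, edgeR quasi-likelihood test). Hom replicate 1 stood apart from the other Hom livers, with a chi-square per degree of freedom of 85.3 and 79.9 against them where they differed by 26.6, and WT replicate 1 stood apart in the same way (143 and 163 against 23.8). No read of Ddx3y or Kdm5d, genes of the Y chromosome, was counted in Hom replicate 1 (0 counts each), against at least 243 in each of the other livers. Read by these genes, Hom replicate 1 was female and the other livers male, so sex was not balanced between the groups. Its part in the changes below was not tested.

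Of the 40 assembly factors, 14 were lower in Hom livers, 1 was higher and 25 did not pass an adjusted p of 0.05, with a median log2 fold change of -0.22. All 40 passed the filter on low counts, the lowest single value being 41 counts. The 14 lower genes made up 35.0% of the factors, where 20.1% of all genes tested were lower. The 1 higher gene, Coa7, made up 2.5%, where 21.5% of all genes were higher. The values of all Hom livers lay under those of all WT livers for 20 factors (50.0%, against 27% of all genes) and above them for 1 (28.7% of all genes), and the groups overlapped for the other 19. With 3 livers in each group an exact permutation test of a single gene cannot go below p = 0.1. Without Hom replicate 1, 13 factors were lower and 0 higher, and without Hom replicate 3 the lower count was 9.

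**Figure D1:**
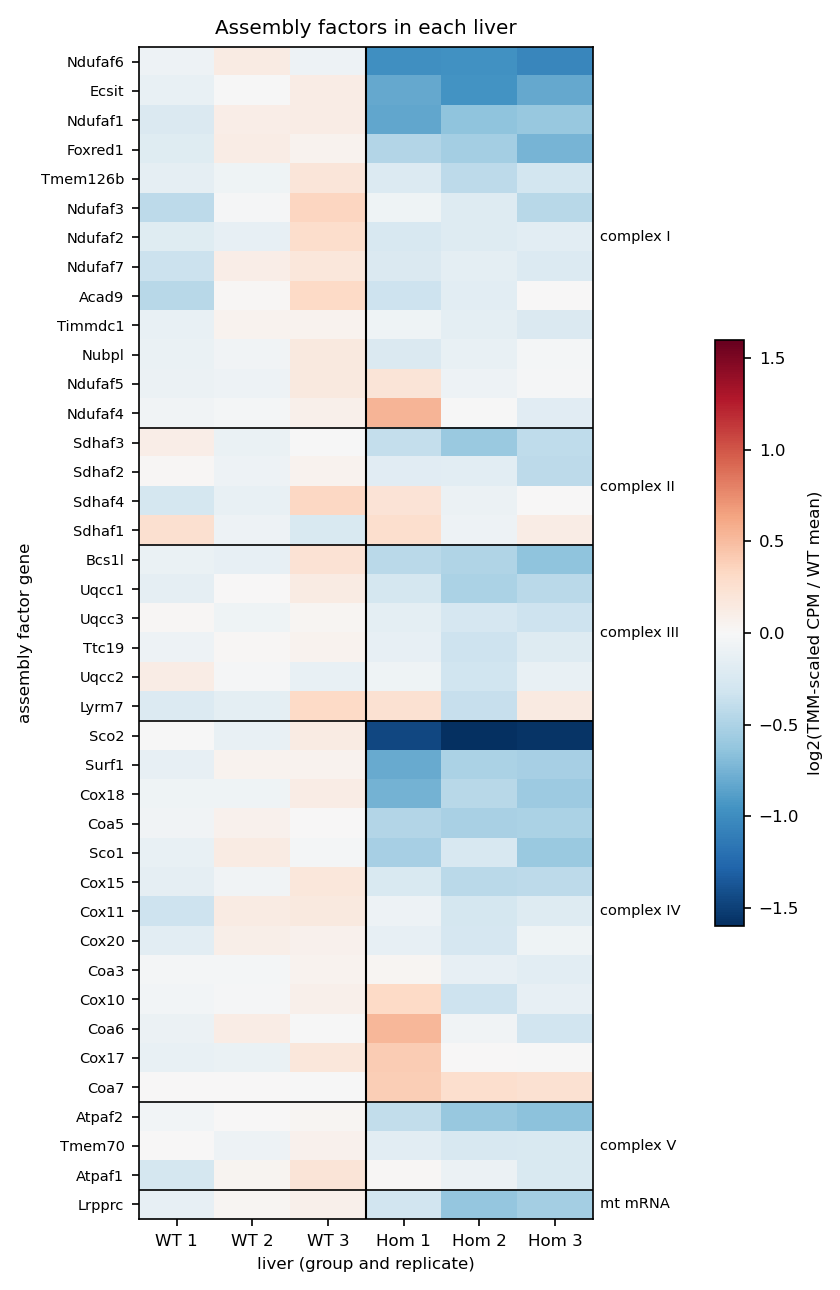
Each row is an assembly factor and each column a liver, and the colour gives the log2 ratio of its TMM-scaled CPM to the mean of the 3 WT livers, blue for lower and red for higher. Within each complex the rows are ordered by log2 fold change, and the darkest blue cells are those of Sco2, at -1.58 over the 3 Hom livers, while Coa7 is the only row whose 3 Hom livers are all above the WT livers.

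The structural subunits set a scale for these changes. Of 78 subunit genes of complexes I to V, 77 were lower and 0 higher in Hom livers, with a median of -0.65, and the other one, Cox7a1, was at -0.86 (adjusted p = 0.111). Sdhb, the iron-sulfur subunit of complex II, changed by -0.82 ± 0.095 SE on the log2 scale. Of the 39 factors that act on a complex, 29 had a log2 fold change above that of every subunit of their own complex. For 35 it was above the median of those subunits. The median of all genes tested, -0.00175, also lay above every subunit, the highest being at -0.381. Neither count is therefore particular to the factors, and the share of all genes above the subunits was not counted. After the length correction the factor median was -0.166 and the highest subunit was at -0.105. The difference between the medians of factors and subunits was 0.433. A change of scaling shifts all genes nearly alike, so it cannot test this difference. With the length correction the difference was 0.303, and with single livers left out it was 0.338 to 0.454. These lists were compared by counts and medians only.

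**Figure D2:**
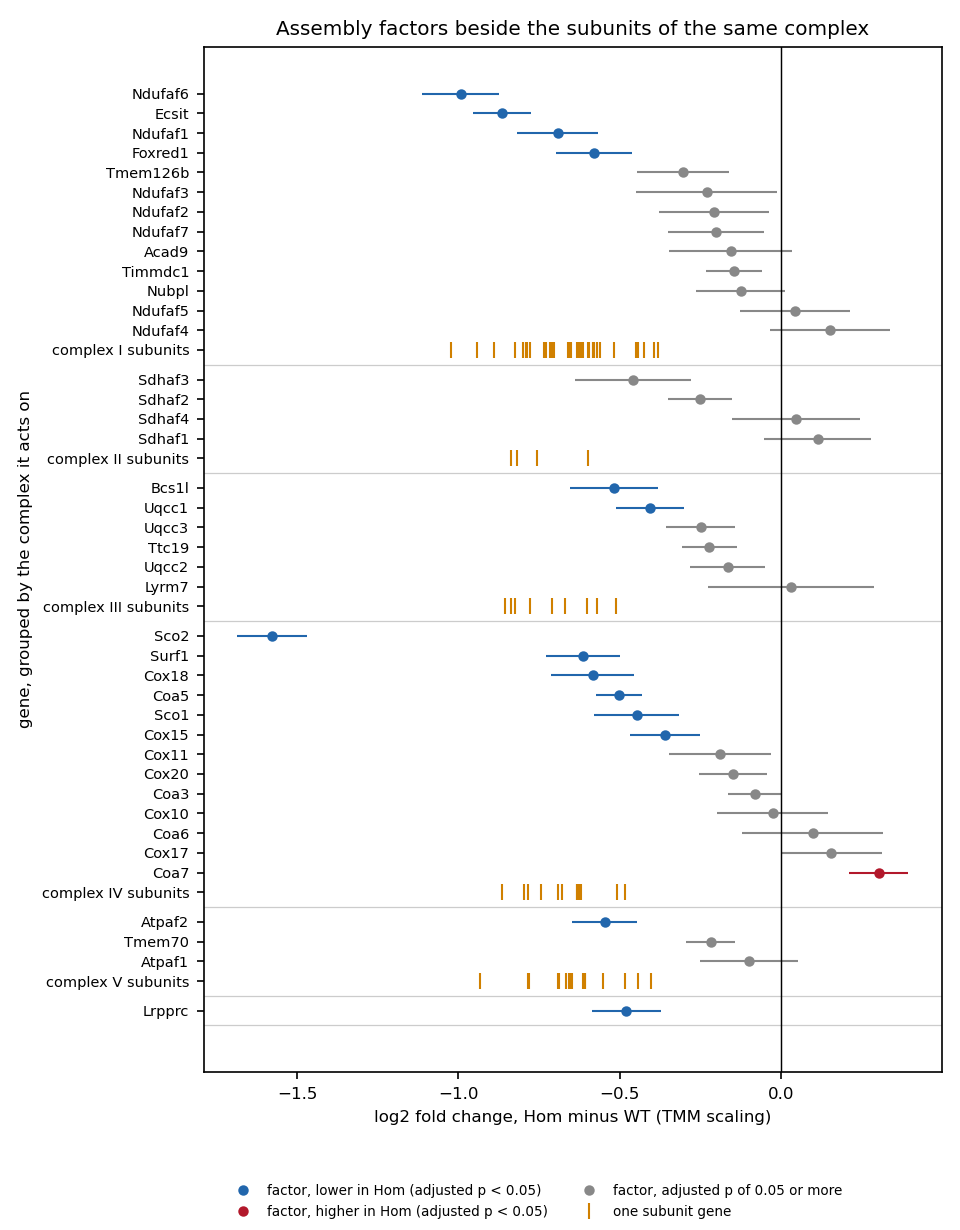
Each circle is the log2 fold change (Hom minus WT) of an assembly factor with its SE, blue if lower, red if higher and grey if its adjusted p was 0.05 or more. Each orange tick is a subunit gene of the complex named at the left. Most factor circles sit to the right of the ticks of their complex, 29 of them beyond the rightmost tick of their own complex, and Sco2 sits farthest left. The median of all genes tested, -0.00175, also lies to the right of every tick.

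Of the 13 complex I factors, 4 were lower in Hom livers, 0 were higher and 9 did not pass the test, with a median log2 fold change of -0.21. Complex I oxidises NADH. Ndufaf6, needed for an early step of complex I assembly, was at 12.3, 14.2 and 12.3 CPM in WT and at 6.58, 6.64 and 6.29 CPM in Hom livers (-0.99 ± 0.119 SE, adjusted p = 0.00132). Ecsit, a scaffold of the intermediate assembly complex that builds the membrane arm, was at 43.6, 46.8 and 51.4 CPM in WT and at 26.8, 24.3 and 26.7 CPM in Hom livers (-0.86 ± 0.0903 SE, adjusted p = 0.000865). Ndufaf1, which works in the same intermediate, was at 19.9, 25.1 and 25.3 CPM in WT and at 13.1, 15.0 and 15.4 CPM in Hom livers (-0.69 ± 0.127 SE, adjusted p = 0.00603). In each of these genes the highest Hom liver was below the lowest WT liver. Foxred1, a flavin-dependent oxidoreductase, was the other complex I factor that fell (-0.58 ± 0.118 SE, adjusted p = 0.00871). All 4 kept an adjusted p under 0.05 with any single liver left out, the highest being 0.0362 for Foxred1.

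The partners of Ecsit and Ndufaf1 in the intermediate assembly complex did not pass the test, with Tmem126b at -0.30 (adjusted p = 0.126), Acad9 at -0.16 (0.539) and Timmdc1 at -0.15 (0.213) on the log2 scale. Acad9, an acyl-CoA dehydrogenase relative, had a wide spread in WT livers, at 29.6, 40.5 and 50.0 CPM. Ndufaf4, which acts with Ndufaf3 on an early intermediate, was at 21.9, 22.4 and 24.1 CPM in WT and at 33.2, 22.7 and 20.1 CPM in Hom livers (0.15 ± 0.185 SE, adjusted p = 0.54). The high Hom value was that of replicate 1, and without it the log2 fold change of Ndufaf4 was -0.09. Ndufaf5, which hydroxylates an arginine of a core subunit, lay closest to no change and was at 4.24, 4.30 and 5.04 CPM in WT and at 5.23, 4.29 and 4.48 CPM in Hom livers (0.04 ± 0.17 SE, adjusted p = 0.855). The remaining complex I factors lay between -0.23 and -0.13: Ndufaf2, a late-acting factor, Ndufaf3, the arginine methyltransferase Ndufaf7, and Nubpl, which delivers iron-sulfur clusters. Ndufaf7 alone passed when a liver was omitted, at an adjusted p of 0.0313 without WT replicate 1.

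None of the 4 complex II factors passed the test, and their median was -0.10, while all 4 subunits of succinate dehydrogenase, the enzyme they build, were lower with a median of -0.79. Sdhaf1, a small protein that helps load iron-sulfur clusters into SDHB, was at 14.6, 11.5 and 10.3 CPM in WT and at 14.7, 11.5 and 13.3 CPM in Hom livers (0.11 ± 0.165 SE, adjusted p = 0.61). Sdhaf3, which also acts on SDHB, was at 4.24, 3.66 and 3.93 CPM in WT and at 3.03, 2.60 and 2.97 CPM in Hom livers (-0.46 ± 0.18 SE, adjusted p = 0.078). The Sdhaf3 values did not overlap between the groups, whereas those of Sdhaf1 did. Sdhaf4, which binds SDHA once it carries flavin, was at 5.25, 5.84 and 7.99 CPM in WT and at 7.37, 5.94 and 6.38 CPM in Hom livers (0.05 ± 0.198 SE, adjusted p = 0.869). Sdhaf2, required to attach that flavin, was at -0.25 ± 0.0995 SE (adjusted p = 0.0815). The log2 fold changes of all 4 factors lay above -0.60, that of the least reduced complex II subunit. After correction for gene length Sdhaf2 reached an adjusted p of 0.043.

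Of the 6 complex III factors, 2 were lower in Hom livers and 4 did not pass the test, with a median of -0.24. Uqcc1, which acts early with newly made cytochrome b, was at 27.1, 29.9 and 32.8 CPM in WT and at 24.6, 21.0 and 22.1 CPM in Hom livers (-0.41 ± 0.104 SE, adjusted p = 0.0197). Bcs1l, which moves the Rieske iron-sulfur protein across the inner membrane, was also lower (-0.52 ± 0.136 SE, adjusted p = 0.0216). Neither call withstood every omission. Without WT replicate 3, Hom replicate 2 or Hom replicate 3 the adjusted p was 0.0512, 0.0591 and 0.0801 for Bcs1l and 0.0592, 0.0744 and 0.0718 for Uqcc1, and Uqcc1 was at 0.0587 without WT replicate 2. Lyrm7, the chaperone of the Rieske protein before Bcs1l takes it, was at 2.51, 2.63 and 3.63 CPM in WT and at 3.45, 2.27 and 3.23 CPM in Hom livers (0.03 ± 0.257 SE, adjusted p = 0.935). Its groups overlapped. Uqcc2, the partner of Uqcc1, was at 16.9, 15.3 and 14.3 CPM in WT and at 14.8, 12.4 and 14.3 CPM in Hom livers (-0.17 ± 0.117 SE, adjusted p = 0.288). Uqcc3 and Ttc19, the latter of which clears fragments of the Rieske protein, lay at -0.25 and -0.22 and did not pass, although neither overlapped between the groups.

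Complex IV, cytochrome c oxidase, had the factor with the largest change and the only one that was higher. Of its 13 factors, 6 were lower, 1 was higher and 6 did not pass the test, with a median of -0.19. Sco2, a copper chaperone for the COX2 subunit, was at 37.2, 34.4 and 41.0 CPM in WT and at 13.7, 11.4 and 12.6 CPM in Hom livers (-1.58 ± 0.108 SE, adjusted p = 0.000279). Its mean fell from 37.5 ± 3.31 CPM to 12.6 ± 1.15 CPM (SD, n = 3), that is to 33.5% of WT, and it was the only factor whose log2 fold change reached 1 in size. The exons of Sco2 overlap those of Tymp on the same strand and those of Ncaph2 on the opposite strand, so its reads may be shared with them and its count is uncertain. Tymp, thymidine phosphorylase, was at -1.82 (adjusted p = 0.00457) and Ncaph2, a condensin subunit, at -0.18 (adjusted p = 0.0886). Sco1, the paralog of Sco2 with a copper-handling role of its own, was at 13.1, 15.5 and 13.9 CPM in WT and at 9.80, 11.9 and 9.44 CPM in Hom livers (-0.45 ± 0.132 SE, adjusted p = 0.0329). It lost the call in 4 of 6 omissions, at an adjusted p of 0.102 and 0.0635 without WT replicate 2 or 3 and of 0.0807 and 0.116 without Hom replicate 1 or 3.

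Surf1, needed for the heme-containing COX1 module, was at 23.5, 26.9 and 26.9 CPM in WT and at 14.7, 18.1 and 17.8 CPM in Hom livers (-0.61 ± 0.115 SE, adjusted p = 0.00642). Cox18, which inserts COX2 into the inner membrane, and Coa5, a factor of early assembly, changed by -0.58 ± 0.129 SE (adjusted p = 0.0118) and by -0.50 ± 0.0721 SE (adjusted p = 0.00243). Surf1, Cox18 and Coa5 stayed lower in every omission of a liver. The exons of Surf1 overlap those of Surf2 on the opposite strand, so its reads may be shared. Cox15, the heme A synthase, was lower as well (-0.36 ± 0.107 SE, adjusted p = 0.0338), but not without WT replicate 2 or 3 (0.0674 and 0.0808) or Hom replicate 2 or 3 (0.108 and 0.106). Cox10, the heme O synthase of the preceding step, was at 15.3, 15.6 and 16.7 CPM in WT and at 19.7, 12.6 and 14.4 CPM in Hom livers (-0.03 ± 0.171 SE, adjusted p = 0.912). The Hom values of Cox10 spread to both sides of the WT values.

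Coa7, an intermembrane space protein needed for complex IV, was at 14.0, 14.0 and 13.8 CPM in WT and at 18.3, 16.8 and 16.4 CPM in Hom livers (0.30 ± 0.0922 SE, adjusted p = 0.0363). All Hom livers were above the WT livers, but the call was lost with any single liver left out, at adjusted p-values of 0.0548 to 0.0922. Cox20, a chaperone of new COX2, was at 20.8, 25.0 and 24.5 CPM in WT and at 21.4, 19.5 and 22.4 CPM in Hom livers (-0.15 ± 0.105 SE, adjusted p = 0.286). The groups also overlapped for the copper chaperones Cox17 (0.16), Cox11 (-0.19) and Coa6 (0.10) and for Coa3 (-0.08), which stabilises new COX1. Coa6 was at 19.0, 12.6 and 10.6 CPM in Hom livers against 12.3 to 14.2 CPM in WT, and without Hom replicate 1 its log2 fold change was -0.18.

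For ATP synthase, Atpaf2, a chaperone of the alpha subunit of the F1 head, was at 21.4, 22.1 and 22.5 CPM in WT and at 16.8, 14.5 and 14.0 CPM in Hom livers (-0.55 ± 0.101 SE, adjusted p = 0.00613). Atpaf1, the chaperone of the beta subunit, was at 11.0, 13.8 and 15.4 CPM in WT and at 13.6, 12.6 and 11.3 CPM in Hom livers (-0.10 ± 0.152 SE, adjusted p = 0.629). The paired chaperones therefore differed in call, with overlapping groups for Atpaf1 and separate groups for Atpaf2, and the difference between them was not tested. Tmem70, which helps form the membrane ring, was at 36.5, 34.1 and 38.0 CPM in WT and at 32.2, 30.4 and 30.7 CPM in Hom livers (-0.22 ± 0.0757 SE, adjusted p = 0.0541). Atpif1, the inhibitor of ATP synthase and neither a subunit nor an assembly factor, was higher in Hom livers (0.78 ± 0.125 SE, adjusted p = 0.00362).

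Lrpprc was at 98.6, 110 and 114 CPM in WT and at 87.2, 70.6 and 74.0 CPM in Hom livers (-0.48 ± 0.107 SE, adjusted p = 0.0124). The groups were separate, and the adjusted p was 0.0505 without Hom replicate 3. Slirp, its RNA-binding partner, was at -0.07 (adjusted p = 0.634).

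Because the total of all factors and subunits moves with the scaling, the factors were also set against the subunits inside each liver, on the deposited TPM values (transcript abundance scaled to a fixed total per liver), which account for gene length. Complex II factor RNA amounted to 6.33%, 5.18% and 5.74% of complex II subunit RNA in the WT livers and to 9.75%, 8.72% and 9.21% in the Hom livers. For complex I the share was 3.47%, 4.13% and 4.32% in WT and 4.60%, 4.81% and 4.84% in Hom livers. For complex III it was 4.50%, 4.49% and 4.47% in WT and 6.24%, 5.95% and 6.36% in Hom livers. In each of these complexes every Hom liver had a larger share than every WT liver. Complex IV factors amounted to 6.67%, 7.41% and 7.51% of subunit RNA in WT and to 9.90%, 9.25% and 9.36% in Hom livers. Complex V factors amounted to 0.831%, 0.863% and 0.904% in WT and to 1.10%, 1.14% and 1.09% in Hom livers. The Hom mean was 1.2 times the WT mean for complex I and 1.6 times for complex II, with the others between. Summed subunit TPM was itself 0.917 (complex II) to 0.979 (complex V) times WT. The median gene with at least 1 TPM in both groups had a ratio of 1.45. A gain relative to the subunits is therefore not particular to the factors.

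**Figure D3:**
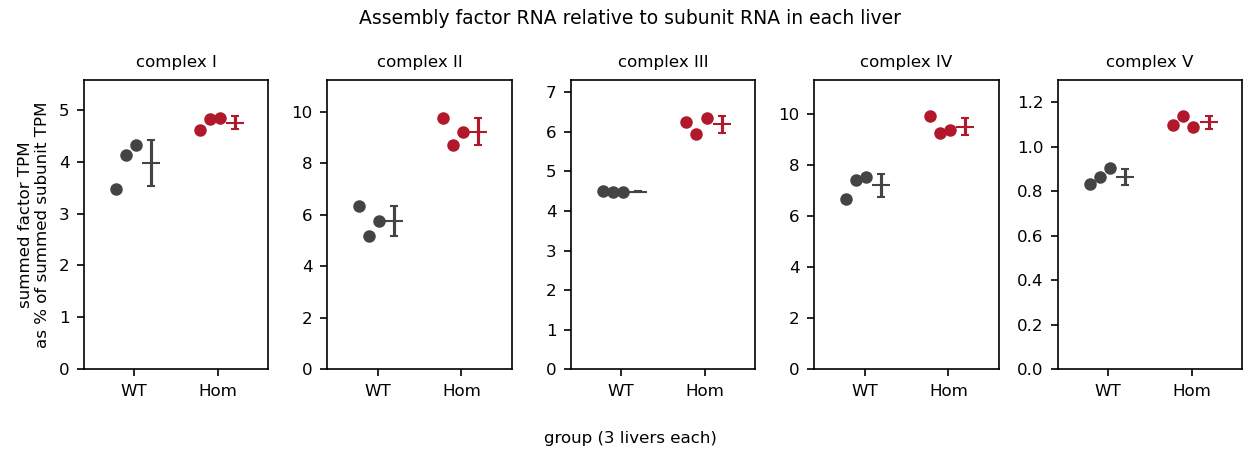
Each point is a liver, and the vertical axis gives the summed TPM of the assembly factors of a complex as a percentage of the summed TPM of its subunits, starting at 0. The bar beside the points is the mean with its SD (n = 3), and the Hom points lie above the WT points in all 5 panels, from 5.75% to 9.22% on average in complex II and from 3.97% to 4.75% in complex I. For scale, the median Hom to WT ratio of TPM was 1.45 over genes with at least 1 TPM in both groups.

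On the TPM scale itself, which is set to the same total in every liver, 36 of the 40 factors had a higher mean in Hom than in WT livers. The median Hom to WT ratio of TPM was 1.32 over the factors and 1.45 over the 11179 genes with a mean of at least 1 TPM in both groups, and Sco2 had the lowest ratio of the factors (0.513). By TPM the most abundant factors in WT livers were Cox20 (83.0), Coa3 (66.7), Uqcc2 (53.0), Cox17 (48.7) and Sco2 (46.0), and the least abundant were Lyrm7 (1.37) and Sco1 (4.79). Sco2 was in the 5th place in WT and in the 15th in Hom livers, at 23.6 TPM.

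The count of lower factors depended on the scaling. With library size alone, 3 factors (Sco2, Ndufaf6 and Ecsit) were lower, where 4.65% of all genes were, and 9 were higher, where 47.6% of all genes were. Sco2 was at -1.13 (adjusted p = 0.000623), Ndufaf6 at -0.53 (0.0162) and Ecsit at -0.41 (0.01) on that scale, and Coa7 was at 0.75 (0.00199). The median factor was then at 0.23, below the median gene at 0.45, and the median subunit at -0.20. When libraries were scaled to hepatocyte marker genes, Sco2 was the only lower factor (-0.78), where 2.18% of all genes were lower, and 28 were higher, where 76% of all genes were, and the medians were 0.58 for the factors, 0.15 for the subunits and 0.81 for all genes. The medians kept their order under each of these scalings, with subunits lowest and all genes highest. A scaling shifts all genes nearly alike, so this order could not change with it.

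**Figure D4:**
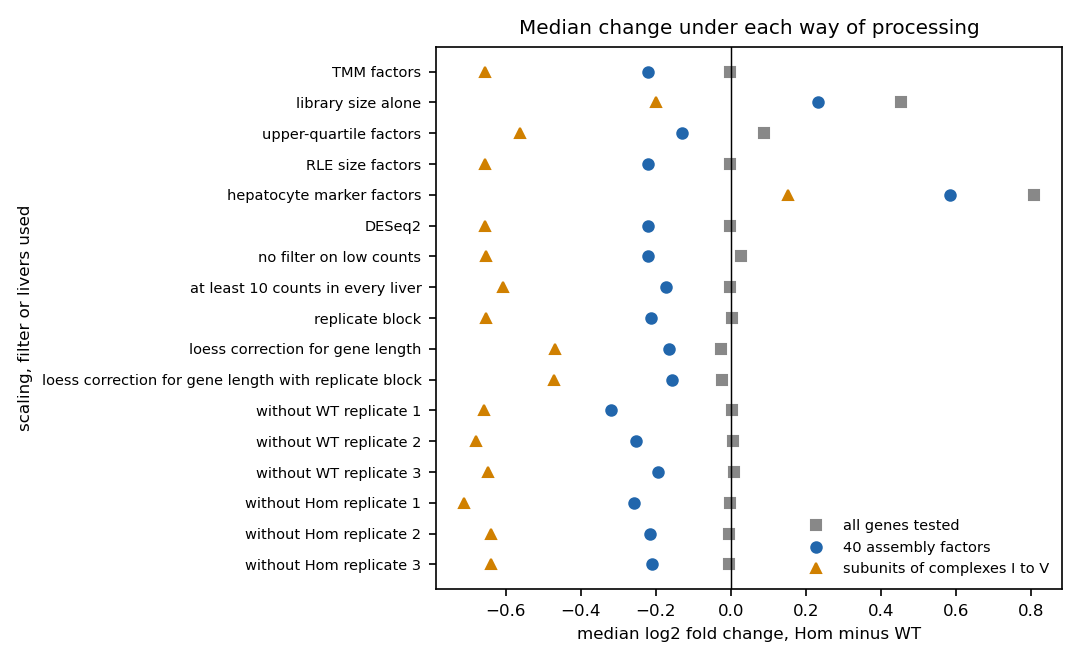
The horizontal axis gives the median log2 fold change (Hom minus WT), and each row is a way of scaling, filtering, correcting or leaving out a liver. Grey squares are all genes tested, blue circles the 40 assembly factors and orange triangles the subunits, and in every row the circle lies between the triangle and the square, with 0.433 between circle and triangle under TMM scaling. A change of scaling moves the symbols of a row together, so their order cannot change with it.

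Other assembly factors outside the 40 genes and the machinery that makes iron-sulfur clusters were read in the same fit. Of 23 other assembly factors tested, 13 were lower and 0 higher, with a median of -0.42. They included Fmc1, which acts with Atpaf2 on ATP synthase (-1.13 ± 0.116 SE, adjusted p = 0.000806), Timm21 (-0.68), Aifm1 (-0.63), and Oxa1l, the inner membrane insertase (-0.38, adjusted p = 0.00833). Coa4 had the highest value in that list, 0.71, and did not pass (adjusted p = 0.0577). Of 13 genes of iron-sulfur cluster assembly, 9 were lower and 0 higher, with a median of -0.44. Without WT replicate 2, Hom replicate 2 or Hom replicate 3 the lower count was 5. Those lower included the scaffold Iscu (-0.54), the chaperone Hspa9 (-0.62) and the cysteine desulfurase Nfs1 (-0.34), whereas its stabilising partner Lyrm4 was at -0.17 and did not pass (adjusted p = 0.367). With library size alone their medians were 0.04 and 0.02, where the median gene was at 0.45. On that scale 1 was lower and 3 higher in the first list, and 0 lower and 1 higher in the second. Of all genes 4.65% were then lower and 47.6% higher. A scaling shifts all genes nearly alike, and both medians lay below that of all genes on either scale.

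Cell type markers moved between the groups too. Hepatocyte markers summed to 207000 to 243000 CPM in WT and 96800 to 138000 CPM in Hom livers, with 16 of 26 lower and 1 higher and a median of -0.71. Without Hom replicate 3, 10 of these markers were lower. Cholangiocyte markers summed to 86.6 to 110 CPM in WT and 674 to 954 CPM in Hom livers, with 9 of 10 higher. Of 12 stellate cell markers 6 were higher and 2 lower (375 to 443 against 759 to 865 CPM), and of 10 endothelial markers 7 were lower (274 to 372 against 135 to 159 CPM). Macrophage markers summed to 241 to 600 CPM in WT and 336 to 464 CPM in Hom livers (3 of 11 higher, 2 lower). Without WT replicate 1, 6 of them were higher. Only 1 was higher without WT replicate 2, WT replicate 3, Hom replicate 2 or Hom replicate 3. The 9 lymphocyte markers summed to 5.45 to 8.21 CPM in WT and 7.56 to 12.3 CPM in Hom livers (1 of the 5 tested was higher). No marker was at 0 in all livers. The part of these shifts in the changes of the assembly factors was not tested.

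Promoters of genes for mitochondrial proteins often hold sites for nuclear respiratory factor 1 (NRF1), ETS proteins such as GABP, YY1 and estrogen-related receptors (ERR). The 300 bases around the annotated start (250 before and 50 after it) were available for 34 of the 40 factors from RefSeq (GRCm38.p6) and were searched on both strands for 1 exact string of 8 letters for each. GCGCANGC (NRF1) was found in 7 of them (20.6%, against 20.9% of the promoters of genes tested), CCGGAAGT (ETS) in 4 (11.8% against 8.33%), AAGATGGC (YY1) in 5 (14.7% against 4.91%) and TGACCTTG (ERR) in 1 (2.94% against 1.35%). Over all 27025 promoters the shares were 11.2%, 4.31%, 3.19% and 1.76%. Of the 15 factors with a string, 4 were lower in Hom livers and their median log2 fold change was -0.22. Of the 19 without, 8 were lower and 1 was higher, and their median was -0.23, so the factors with and without these letters had like medians. The 60-base stretches that hold a string before the start site and touch no annotated UTR are shown to let the strings be read in place, 5′ to 3′ on the strand of the gene, with the string in capitals, or its reverse complement where it lies on the other strand.
Ndufaf4, chr4:24897944-24898003 (+): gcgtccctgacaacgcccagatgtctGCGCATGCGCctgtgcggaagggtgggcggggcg
Ttc19, chr11:62281413-62281472 (+): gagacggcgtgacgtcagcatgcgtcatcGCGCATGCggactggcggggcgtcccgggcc
Cox10, chr11:64079473-64079532 (-): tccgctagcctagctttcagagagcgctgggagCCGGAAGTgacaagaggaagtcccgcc
Timmdc1, chr16:38522775-38522834 (-): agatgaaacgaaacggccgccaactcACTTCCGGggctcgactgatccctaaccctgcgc
Cox20, chr1:178319052-178319111 (+): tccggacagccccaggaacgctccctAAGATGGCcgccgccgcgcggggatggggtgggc
Uqcc3, chr19:8881038-8881097 (-): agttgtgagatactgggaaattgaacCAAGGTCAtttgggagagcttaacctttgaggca
In Ndufaf4 the NRF1 string occurs on both strands in overlapping positions. None of these 6 genes passed the test, with log2 fold changes from -0.25 for Uqcc3 to 0.15 for Ndufaf4.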

How the data were processed

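The authors deposited, per gene and liver, expected counts (estimated read counts, not scaled), FPKM (per kilobase and per total reads) and TPM (per gene length, scaled to a fixed total per liver). RNA was extracted with Trizol and sequenced on a DNBSEQ platform. The submitters' processing notes name HISAT2 2.0.4, Bowtie2 2.2.5, RSEM 1.2.12 and build mm9, with no order. The annotation and strandedness are not given in the sources used here, so overlapping antisense genes may share reads. Exons of 10 factors overlap those of another gene in the expression data. Among them are the lower factors Sco2, Surf1 and Cox15, the last with Cutc and Entpd7. Of the deposited counts 65.9% were whole numbers, and the rest were rounded. The deposited FPKM served only to derive the gene length for the length correction. The deposited group averages carry names that do not match their groups and were not used.

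Samples were grouped by genotype label. Genes were filtered with filterByExpr and tested (Hom minus WT) by the quasi-likelihood test of edgeR 4.0.16 (R 4.3.3) with TMM factors and Benjamini-Hochberg adjustment over 13805 genes, calling an adjusted p under 0.05. A gene is called lower or higher by this rule. Atpif1 was taken out of the subunit list, as it is not a subunit, after its value was seen. DESeq2 1.42.0 was an alternative, as were other scalings, filters, a length correction (loess, span 0.3), a replicate block and the omission of each liver. The test and the length correction were checked on simulated counts with known changes. Named genes were Nek7, Sdhb, every factor that passed against its group, and for each complex those with the smallest adjusted p in each direction, the smallest change, and the highest and lowest TPM, with the factors of largest change overall. Other genes named were chosen after their values were seen. The members and lists were chosen with earlier results of these data known. Promoter sequence is from RefSeq (GRCm38.p6), not the build of the counts, and gene overlap from GENCODE M21. Nothing states that the livers came from separate litters or batches, so p-values measure the spread between these samples.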

Additional observations from a re-analysis of the deposited data

How the results depend on the processing

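The counts of lower and higher genes kept within 1.5 times of those reported with RLE factors, with upper-quartile factors and with at least 10 counts in every liver. DESeq2 and a test without a filter on low counts left 0 factors higher. The size of the factors' count rested on the scaling and on the depth of change asked for. With library size alone 642 genes were lower and 6574 higher, 3 factors were lower and 9 higher, with 2 lower in complex I, 0 in complex III, 1 in complex IV and 0 in complex V, and 23 subunits were lower. With factors from hepatocyte markers 301 genes were lower and 10493 higher, 1 factor was lower and 28 higher, with 0 lower in complexes I, III and V and 1 in complex IV, and 0 subunits were lower. When a log2 fold change of 1 or more in size was also required, 575 genes were lower and 1825 higher, 1 factor was lower (complex IV) and 0 higher, with 0 lower in complexes I, III and V, and 1 subunit was lower. The length correction gave 16 lower factors and 1 higher. It added Sdhaf2 of complex II (adjusted p = 0.043) and Ttc19 of complex III (0.0205) to the lower factors. The higher factor was then Cox17 (0.45, adjusted p = 0.0351), and Coa7 did not pass (0.0594).

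The replicate numbers are shared by name only, since same-numbered livers did not deviate together (correlations -0.0786, -0.0394 and -0.0176). With the replicate block 11 factors were lower and 0 higher, 0 of them in complex III, and with the length correction and the replicate block 13 were lower and 0 higher, 1 of them in complex III. The cause was not tested.

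With single livers left out, lower genes numbered 1767 to 2750 and higher genes 1986 to 3057. Lower factors numbered 9 to 15 and higher factors 0 to 0. By complex the lower factors numbered 4 to 5 (I), 0 to 0 (II), 0 to 2 (III), 4 to 6 (IV) and 1 to 1 (V), and lower subunits 74 to 77. All genes lower numbered 1829 without Hom replicate 2 and 1767 without Hom replicate 3. Of the 14 lower factors, 9 kept the call in all 6 omissions. The sign changed in some omission for Ndufaf4 (-0.0908 to 0.29), Ndufaf5 (-0.0462 to 0.12), Acad9 (-0.34 to 0.0296), Sdhaf4 (-0.0803 to 0.24), Lyrm7 (-0.0883 to 0.21), Cox10 (-0.23 to 0.10), Coa6 (-0.18 to 0.27), Atpaf1 (-0.23 to 0.00849).

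Directions turned as follows, in log2 fold change. A scaling shifts all genes nearly alike. The median gene was at 0.45 with library size alone and at 0.81 with hepatocyte marker factors. Every factor listed under these scalings stayed below that median, so its turn reflects the zero point of the scale. With library size alone: Ndufaf2 (0.25), Ndufaf3 (0.23), Ndufaf7 (0.26), Acad9 (0.32), Timmdc1 (0.31), Nubpl (0.33), Tmem126b (0.15), Sdhaf2 (0.20), Ttc19 (0.23), Uqcc1 (0.0483), Uqcc2 (0.28), Uqcc3 (0.20), Sco1 (0.0164), Cox10 (0.42), Cox11 (0.27), Cox15 (0.095), Cox20 (0.31), Coa3 (0.37), Atpaf1 (0.36) and Tmem70 (0.23). With hepatocyte marker factors: Ndufaf1 (0.12), Ndufaf2 (0.60), Ndufaf3 (0.57), Ndufaf7 (0.61), Foxred1 (0.23), Acad9 (0.65), Timmdc1 (0.66), Nubpl (0.68), Tmem126b (0.50), Sdhaf2 (0.56), Sdhaf3 (0.34), Bcs1l (0.29), Ttc19 (0.58), Uqcc1 (0.39), Uqcc2 (0.64), Uqcc3 (0.56), Surf1 (0.20), Sco1 (0.37), Cox10 (0.76), Cox11 (0.61), Cox15 (0.44), Cox18 (0.23), Cox20 (0.66), Coa3 (0.72), Coa5 (0.31), Atpaf1 (0.70), Atpaf2 (0.26), Tmem70 (0.59) and Lrpprc (0.32). With the length correction: Ndufaf2 (0.0376), Lyrm7 (-0.033), Uqcc2 (0.12), Cox20 (0.14) and Coa3 (0.12). With the length correction and the replicate block: Ndufaf2 (0.0471), Lyrm7 (-0.0345), Uqcc2 (0.12), Cox20 (0.15) and Coa3 (0.12). With upper-quartile factors: Cox10 (0.0639) and Coa3 (0.00915). With at least 10 counts in every liver: Cox10 (0.01996). Counts as low as 41 limit what can be seen in the least expressed factors, and with 3 livers a group small changes cannot be told from the spread.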
